A study of Mus musculus with 10 samples.

Results

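TET2 binding at 38 Hox genes of mouse embryonic stem (ES) cells was read from 8 lists of ChIP-seq peaks. The genes were taken as a fixed list of 10 from cluster A on chromosome 6, 10 from cluster B on chromosome 11, 9 from cluster C on chromosome 15 and 9 from cluster D on chromosome 2. They are 38 of 21887 protein-coding genes. A peak was given to every listed Hox gene whose mm10 span it overlapped, or else to a Hox gene that was the nearest protein-coding span within 50 kb. The peaks of all lists were merged into regions where they shared at least 1 bp, and 65 of 79350 regions were given to a Hox gene.

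The ES cells of every group were cultured with serum, LIF, the GSK-3 inhibitor CHIR99021 and the MEK inhibitor PD0325901. Wild-type cells (Tet2fl/fl, with both alleles floxed and no tag) and Tet2 knockout cells (Tet2-/-) were immunoprecipitated with a rabbit polyclonal antibody to the TET2 N terminus. FLAG-TET2 cells (Tet2fl/fl, with a 2x-Flag tag on TET2 made from its own locus) and their untagged parental cells (Tet2fl/fl) were immunoprecipitated with the FLAG M2 affinity gel. Lists from wild-type and FLAG-TET2 cells are the target lists, and those from cells labelled Tet2-/- or untagged are the control lists. Each group had 2 lists. The labels do not say whether these came from separate cultures, so the p-values measure a spread between lists that may be technical. The labels also do not say how many clones the knockout and tagged lines stand for. An input and an IgG sample, the other 2 of 10 samples, were not analysed here. Peaks carry no expression values, so the ES cell state could not be checked against marker genes. Over the Tet2 span there were 8 and 4 peaks in wild-type replicates 1 and 2, against 0 and 1 in knockout replicates, and 13 and 10 in FLAG-TET2 lists, against 7 and 0 in parental lists. That count measures binding and does not check the deletion.

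Hox genes encode homeodomain transcription factors that give cells their position along the head-to-tail axis. They sit in clusters, and their order along the chromosome follows the order in which they are switched on, from the anterior to the posterior paralogues. In ES cells the clusters are known as silent, CpG-rich Polycomb territories. TET2 oxidises methylated cytosine in CG dinucleotides, and unlike TET1 and TET3 it carries no CXXC domain of its own for binding CG-rich DNA.

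The Hox genes held 3 of the 4521 regions that had a peak in all 4 target lists and in no control list, called common TET2 regions here. These lay beside Hoxb9, Hoxb1 and Hoxc13, and each was outside the gene span. No common region overlapped a Hox gene, while 2366 of all 4521 common regions (52.3%) overlapped a protein-coding span. Common regions made up 4.62% of the Hox regions and 5.7% of all merged regions, so the share at Hox genes was near the background. By gene, 3 of 38 Hox genes (7.89%) were given a common region, against 13.6% of all protein-coding genes. Hox genes are short, with a median span of 3.72 kb against 17.2 kb for all protein-coding genes, and the part of span length in these shares was not tested.

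The common region assigned to Hoxb9, a gene of thoracic skeletal patterning, was the highest ranked of the 3. It lay at chr11:96250712-96251333 (mm10), 20.0 kb from Hoxb9 in the interval between Hoxb13 and Hoxb9. The authors' fold enrichment over their control track, which belongs to each peak and is used only within its own list, was 17.0 and 10.7 in wild-type replicates 1 and 2, and 20.5 and 11.99 in the FLAG-TET2 pair. Ranked by −log10 q within its list, the peak stood at the 95.9 and 93.0 percentiles in wild-type lists and the 94.5 and 86.8 percentiles in FLAG-TET2. The 4 summits lay within 50 bp of each other. All 4 target lists placed this summit among their higher-ranked peaks, and no control list had a peak in the region. The next region, chr11:96251471-96252266, did hold a peak of parental replicate 1 (fold 6.19, 28.8 percentile), beside peaks of wild-type replicate 1 and both FLAG-TET2 lists.

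Hoxb1 specifies a hindbrain segment and is among the first Hox genes switched on by retinoic acid. Its common region, at chr11:96374752-96375222, began 6.50 kb beyond the gene. RefSeq puts Hoxb1 on the plus strand, so the region lay on the 3′ side. Its folds were 11.4 and 7.18 in wild-type lists, 18.2 and 8.22 in FLAG-TET2 lists, and its percentiles ran from 68.0 in wild-type replicate 2 to 93.1 in FLAG-TET2 replicate 1. Summits were within 37 bp. Retinoic acid response elements are known 3′ of mouse Hoxb1, and whether the region covers one was not tested. This was the single region given to Hoxb1, and the gene had no control peak.

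Hoxc13, needed for hair and nail formation, had its common region at chr15:102931554-102932089, 2.74 kb from the gene and between Hoxc13 and Hoxc12. Folds were 17.6 and 6.14 in wild-type lists, and in FLAG-TET2 lists 14.8 and 8.46. This region was ranked less evenly, at the 97.0 and 47.8 percentiles of wild-type lists and the 91.4 and 71.4 percentiles in FLAG-TET2.

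The highest-ranked Hox region of all was not a common one. It lay at chr11:96190058-96190629, 3.69 kb from Hoxb13, the most posterior gene of its cluster, known for its role in the prostate and tail. It stood at the 99.9 and 99.7 percentiles in wild-type and the 95.8 and 86.2 percentiles in FLAG-TET2 replicates 1 and 2. Its folds reached 25.9 and 15.5 with the TET2 antibody and 17.9 and 9.12 with the FLAG gel. Knockout replicate 2 and parental replicate 1 each held a peak there too, at the 1.46 and 4.78 percentiles of their lists, with folds of 3.71 and 3.94. Those weak control peaks kept it out of the common class. When peaks with a −log10 q under 5 were left out of every list, the control peaks dropped away and this region became common, as did one near Hoxa9. Near Hoxa9 the control peak, from knockout replicate 2, fell just under that cut. Its −log10 q was 4.94, against 7.67 and 5.75 in wild-type replicates 1 and 2.

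**Figure D1:**
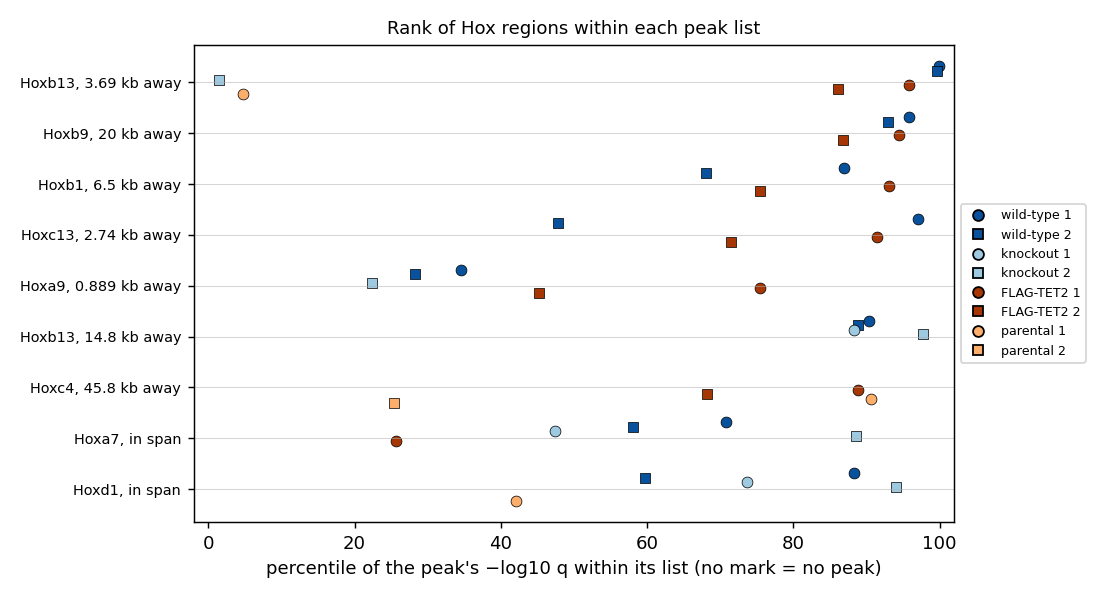
Percentile of −log10 q within its own list (horizontal axis, 100 is the highest ranked peak) for the Hox regions named by rule, with circles for replicate 1 and squares for replicate 2. The region 3.69 kb from Hoxb13 sits between 86.2 and 99.9 in the target lists and at 1.46 and 4.78 in 2 control lists. The regions in Hoxa7 and Hoxd1 have marks from both knockout lists as well as from both wild-type lists.

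Another region given to Hoxb13 stood about as high within the knockout lists as within the wild-type lists. The lists differ in length, so like percentiles in different lists do not mean like peak strength. At chr11:96211447-96211778, 14.8 kb from the gene, wild-type replicates 1 and 2 had a peak at the 90.3 and 88.8 percentiles, and knockout replicates 1 and 2 at the 88.3 and 97.8 percentiles. No FLAG-TET2 or parental list had one. The TET2 antibody thus gave a peak at this place in the knockout cells as well.

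Hoxa7 and Hoxd1 each held a region over the gene that knockout lists also had. The Hoxa7 region (chr6:52216922-52217745) had peaks at the 70.8 and 58.0 percentiles in wild-type and at the 47.5 and 88.6 percentiles in knockout replicates 1 and 2. FLAG-TET2 replicate 1 had a peak at the 25.7 percentile. At Hoxd1, the most anterior gene of cluster D, the region chr2:74762790-74763641 had peaks at the 88.3 and 59.8 percentiles in wild-type, at the 73.6 and 94.1 percentiles in knockout and at the 42.0 percentile in parental replicate 1. Neither FLAG-TET2 list had a peak in it. Of all Hox regions it was in the most control lists, 3 of 4, against 2 of 4 target lists.

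**Figure D2:**
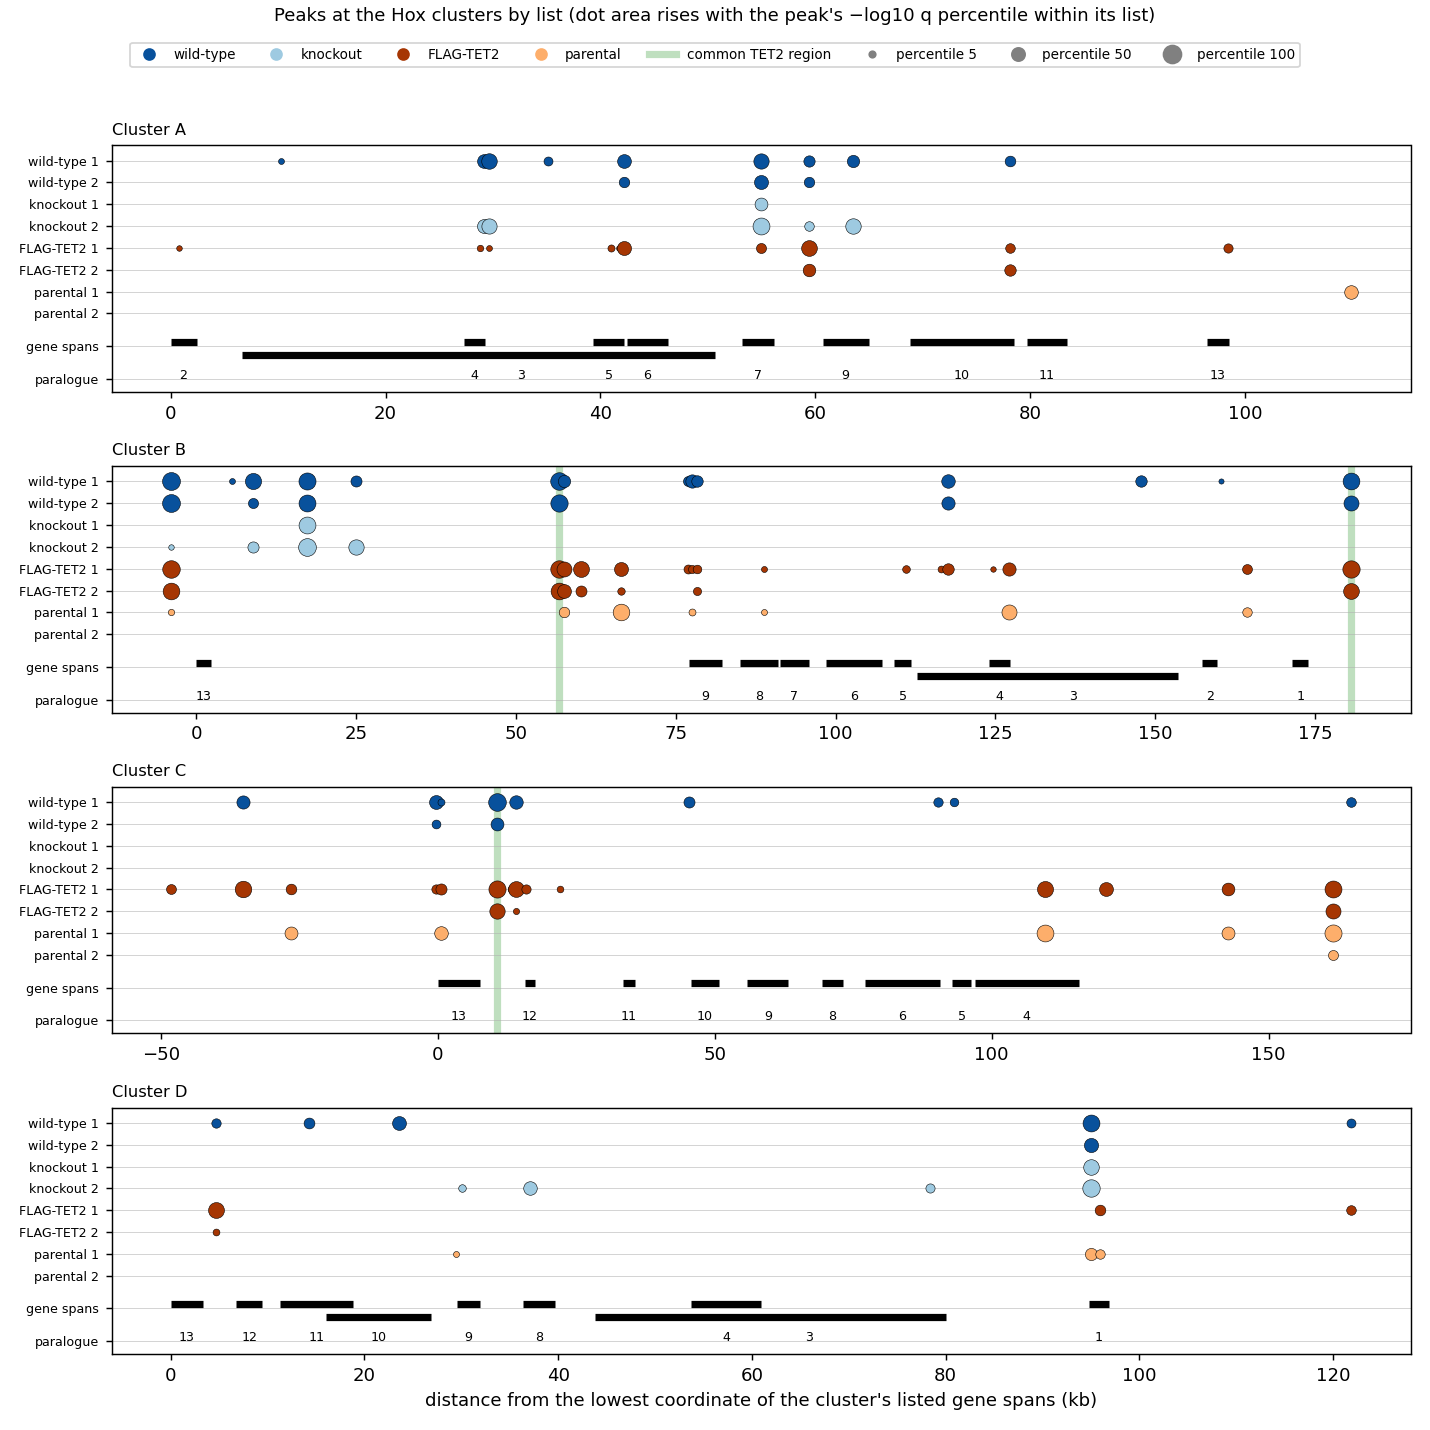
Peaks along the 4 Hox clusters, drawn as distance in kb from the lowest coordinate of the listed gene spans, with one row per list and dot area rising with the percentile of −log10 q in that list; black bars are gene spans. Green bands mark the 3 common regions, which all lie between or beyond the gene spans of clusters B and C.

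The RefSeq promoter table (GRCm38.p6, the assembly that mm10 represents) holds 300-base windows, 250 before and 50 after a start site, for 22 of the 38 genes, in 24 windows. A peak overlapped 5 of them, at Hoxa5, Hoxa13, Hoxd1, Hoxd9 and Hoxd10. These windows are shown for Hoxa5, where peaks came from both wild-type lists and FLAG-TET2 replicate 1 alone, for Hoxd1, where both knockout lists also had a peak, for Hoxa13, where FLAG-TET2 replicate 1 had one, and for Hoxb1, whose promoter had none. Capitals mark CG dinucleotides, the sites that TET2 acts on when they are methylated.

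Hoxa5, chr6:52204538-52204837, minus strand: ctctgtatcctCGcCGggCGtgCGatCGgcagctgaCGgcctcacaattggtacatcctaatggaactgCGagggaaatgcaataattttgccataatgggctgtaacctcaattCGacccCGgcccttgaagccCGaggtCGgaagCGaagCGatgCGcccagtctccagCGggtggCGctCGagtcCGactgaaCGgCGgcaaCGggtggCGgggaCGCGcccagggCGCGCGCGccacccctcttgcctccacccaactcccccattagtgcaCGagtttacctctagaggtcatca
Hoxd1, chr2:74762730-74763029, plus strand: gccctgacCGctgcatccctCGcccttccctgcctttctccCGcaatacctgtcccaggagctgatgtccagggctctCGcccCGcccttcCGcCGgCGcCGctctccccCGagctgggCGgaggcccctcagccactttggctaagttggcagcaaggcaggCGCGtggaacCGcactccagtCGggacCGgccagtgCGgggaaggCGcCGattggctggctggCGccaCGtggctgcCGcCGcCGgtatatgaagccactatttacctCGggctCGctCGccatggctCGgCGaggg
Hoxa13, chr6:52260831-52261130, minus strand: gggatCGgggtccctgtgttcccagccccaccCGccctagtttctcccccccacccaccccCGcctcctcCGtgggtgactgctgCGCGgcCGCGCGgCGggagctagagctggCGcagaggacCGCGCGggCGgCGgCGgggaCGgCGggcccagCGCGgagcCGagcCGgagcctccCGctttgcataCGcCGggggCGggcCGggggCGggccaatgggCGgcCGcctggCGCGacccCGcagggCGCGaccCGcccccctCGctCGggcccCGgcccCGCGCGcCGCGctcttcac
Hoxb1, chr11:96365508-96365807, plus strand: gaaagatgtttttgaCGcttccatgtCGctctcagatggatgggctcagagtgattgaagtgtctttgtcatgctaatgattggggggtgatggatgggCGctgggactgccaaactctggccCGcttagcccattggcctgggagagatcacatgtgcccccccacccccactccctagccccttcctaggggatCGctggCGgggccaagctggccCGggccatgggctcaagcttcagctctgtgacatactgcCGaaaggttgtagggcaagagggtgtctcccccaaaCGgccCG

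CG was searched as those 2 letters, which read the same on both strands. Hox windows held a median of 14.5 CG against 7 over all 32851 windows of the table. Hoxa5 and Hoxd1 held 29 each, a number that 12.9% of all windows reach. Hoxa13 held 45, which 1.93% reach, and Hoxb1 held 10, which 43.5% reach. The 5 windows with a peak held 20 to 45 (median 29), and the 19 without held 4 to 37 (median 13). The 5 include windows whose peak came from knockout or parental lists, so not all of them mark target binding. At Hoxd9 the window had a single peak, from parental replicate 1, and at Hoxd10 a single one, from wild-type replicate 1. Hoxd13 shows that a CG-rich window need not have a peak, with 37 CG and no peak in any list.

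**Figure D3:**
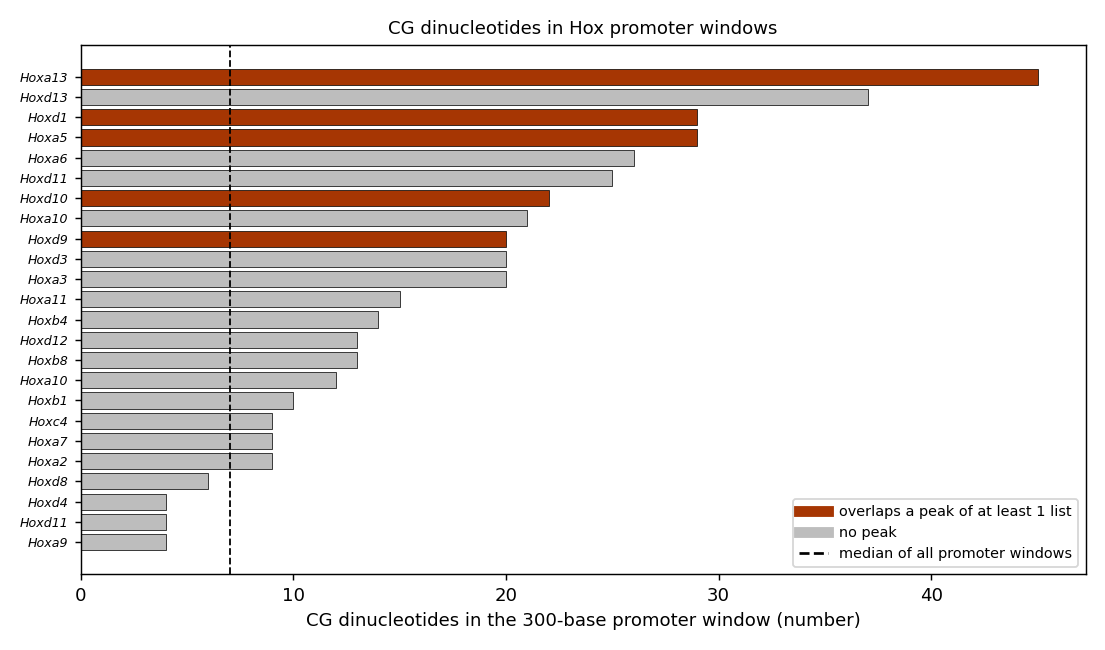
Number of CG dinucleotides in each 300-base Hox promoter window of the RefSeq table, with windows that overlap a peak of at least 1 list in dark colour and the median of all windows as a dashed line. The 5 windows with a peak hold 20 to 45 CG, and windows without a peak run from 4 to 37.

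Peak numbers at Hox genes were higher on average in target than in control lists as deposited, but not when each list was shortened to its 2259 leading peaks. There the log2 difference was -0.16, from -0.32 with the TET2 antibody and 0.0 with the FLAG gel, and 7 Hox regions remained. No FLAG gel list, target or control, kept a Hox peak in that setting. Its 0.0 therefore cannot show whether the FLAG arm differed, and few peaks decided the TET2 antibody arm. Wild-type replicates 1 and 2 gave 37 and 12 Hox peaks, against 4 and 14 from knockout replicates. FLAG-TET2 replicates gave 46 and 13, against 17 and 1 from parental replicates. The groups overlapped in both arms, since knockout replicate 2 exceeded wild-type replicate 2 and parental replicate 1 exceeded FLAG-TET2 replicate 2. On the log2(n + 1) scale the difference was 1.73 (target mean 4.58, control mean 2.85), which is 3.31-fold. It was 1.36 with the TET2 antibody and 2.10 with the FLAG gel, and single lists moved both widely. The TET2 antibody value was 0.57 without knockout replicate 1, 0.59 without wild-type replicate 1, 2.13 without wild-type replicate 2 and 2.15 without knockout replicate 2. The FLAG gel value was 0.51 without parental replicate 2, 1.22 without FLAG-TET2 replicate 1 and 3.68 without parental replicate 1. The exact permutation test, two-sided and with group labels exchanged within a reagent, gave p = 0.222 (n = 4 and 4 lists, 36 arrangements), and the smallest p this test can give is 0.0556. The difference between the reagents was -0.74 (exact permutation p = 0.778), and it changed sign without any one of 4 of the 8 lists. The pooled difference was 0.94 without parental replicate 2 and 2.52 without parental replicate 1.

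The lists differed widely in length, and as a share of all peaks the Hox genes averaged no higher in target lists. Hox peaks were 0.0960% of the 38536 peaks in wild-type replicate 1 (exact 95% binomial interval 0.0676 to 0.132%) and 0.0638% of 18820 in replicate 2 (0.0330 to 0.111%). They were 0.177% of 2259 in knockout replicate 1 (0.0483 to 0.453%) and 0.120% of 11696 in replicate 2 (0.0655 to 0.201%). In FLAG-TET2 they were 0.0724% of 63578 (0.0530 to 0.0965%) and 0.0460% of 28245 (0.0245 to 0.0787%). In parental cells they were 0.0466% of 36518 (0.0271 to 0.0745%) and 0.00988% of 10122 (0.000250 to 0.0550%). Both wild-type shares were below both knockout shares, while the FLAG-TET2 and parental shares overlapped. The mean difference was -0.0188 percentage points (exact permutation p = 0.611), with -0.0685 in the TET2 antibody arm and 0.0310 in the FLAG arm. Without knockout replicate 1 the mean difference was -0.00442 and the TET2 antibody arm -0.0398, and without knockout replicate 2 the mean difference was -0.0331. It was -0.0107 without wild-type replicate 2, -0.0122 without FLAG-TET2 replicate 2 and -0.00959 without parental replicate 1. The FLAG arm was 0.0126 without parental replicate 2, 0.0178 without FLAG-TET2 replicate 1 and 0.0493 without parental replicate 1. The gap between the arms, tested after it was seen, had p = 0.111 in the exact permutation test, with 0.0556 the smallest possible. The intervals cover counting error only, and read depth is unknown.

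**Figure D4:**
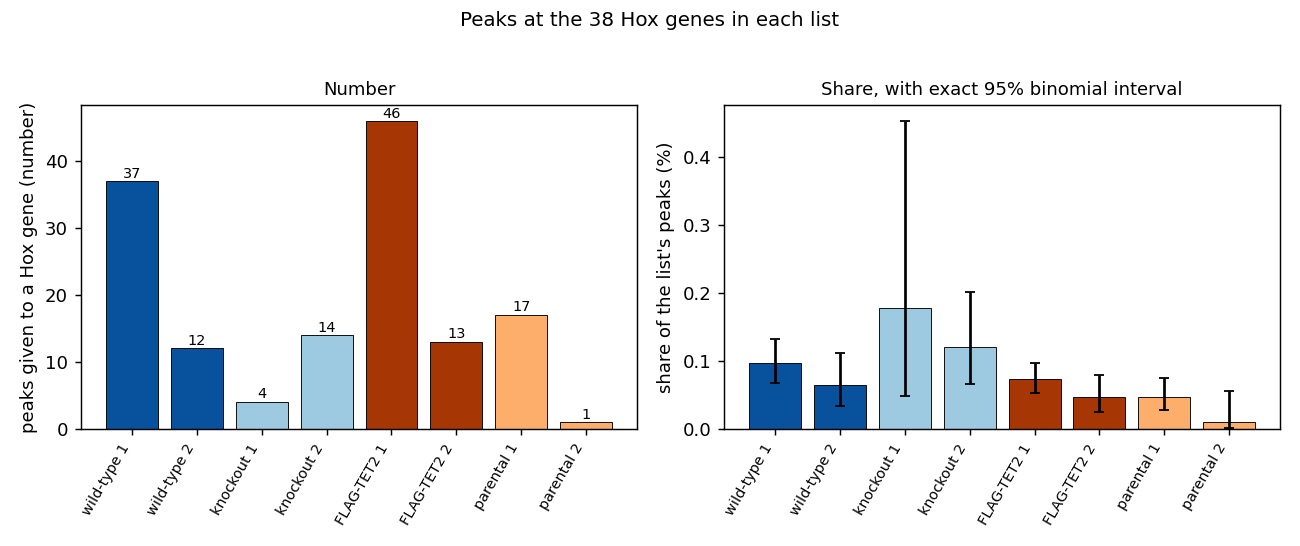
Left, the number of peaks given to the 38 Hox genes in each list; right, those peaks as a percentage of the list, with exact 95% binomial intervals as error bars. Wild-type replicate 1 and FLAG-TET2 replicate 1 have the most Hox peaks (37 and 46), whereas the highest share, 0.177%, belongs to knockout replicate 1.

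Hox peaks ranked near or below the middle of the target lists. Their median percentile was 42.8 and 54.4 in wild-type replicates 1 and 2, 60.5 and 63.9 in knockout, 25.1 and 45.2 in FLAG-TET2, and 42.0 in parental replicate 1. The median of a whole list is at the middle of the scale by construction. In FLAG-TET2 replicate 1, the longest list, the median fold of Hox peaks was 5.58 against 6.92 for all its peaks. The single parental replicate 2 peak, 45.8 kb from Hoxc4, stood at the 25.4 percentile.

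Peaks per length of the clusters were then set against peaks per length of all protein-coding spans. From the first to the last listed gene the 4 clusters spanned 485.0 kb. Wild-type replicates 1 and 2 had 63.9 and 18.6 peaks per Mb there, against 23.7 and 11.8 per Mb of all protein-coding spans. Knockout replicates had 8.25 and 26.8 per Mb in the clusters, against 1.46 and 7.03 in all spans. FLAG-TET2 replicates had 74.2 and 20.6 per Mb against 35.4 and 17.3. Parental replicate 1 had 24.7 against 21.0 and parental replicate 2 had 0 against 6.61 per Mb. The density at Hox clusters thus exceeded that of all spans in 7 of 8 lists, the exception being parental replicate 2. Relative to all spans, the excess was largest in the knockout replicates, so it was not particular to target lists. The cluster lengths include the DNA between Hox genes, whereas the comparison holds gene spans only. 

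Of the 38 Hox genes 29 had a peak in at least 1 list, against 78.4% of all protein-coding genes. Target lists reached 26 Hox genes (76.4% of all genes) and control lists 17 (69.4% of all genes). The 9 without any peak were Hoxa6, Hoxa11, Hoxb6, Hoxb7, Hoxc8, Hoxc9, Hoxc11, Hoxd4 and Hoxd12. Hox genes with a peak numbered 21 and 10 in wild-type (55.3 and 26.3% of the 38) against 3 and 9 in knockout replicates (7.89 and 23.7%). Of all genes, these lists reached 66.0 and 47.5% against 8.85 and 34.1%. Hox genes with a peak numbered 21 and 9 in FLAG-TET2 (55.3 and 23.7%) against 11 and 1 in parental replicates (28.9 and 2.63%). Of all genes, those lists reached 73.1 and 53.8% against 62.9 and 29.9%. The Hox share was thus below that of all genes in each list, and target lists also reached more of all genes on average. The mean difference between target and control lists was 9.25 Hox genes (exact permutation p = 0.167, n = 4 and 4 lists). With lists shortened to equal length it was -0.25 genes, from -0.5 with the TET2 antibody and 0.0 with the FLAG gel, where no list kept a Hox peak. Target lists alone reached 12 of the genes (9.51% of all genes), and control lists alone reached Hoxd3, Hoxd8 and Hoxd9 (2.09% of all genes). Each of those 3 genes was reached by knockout replicate 2, and Hoxd9 also by parental replicate 1.

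**Figure D5:**
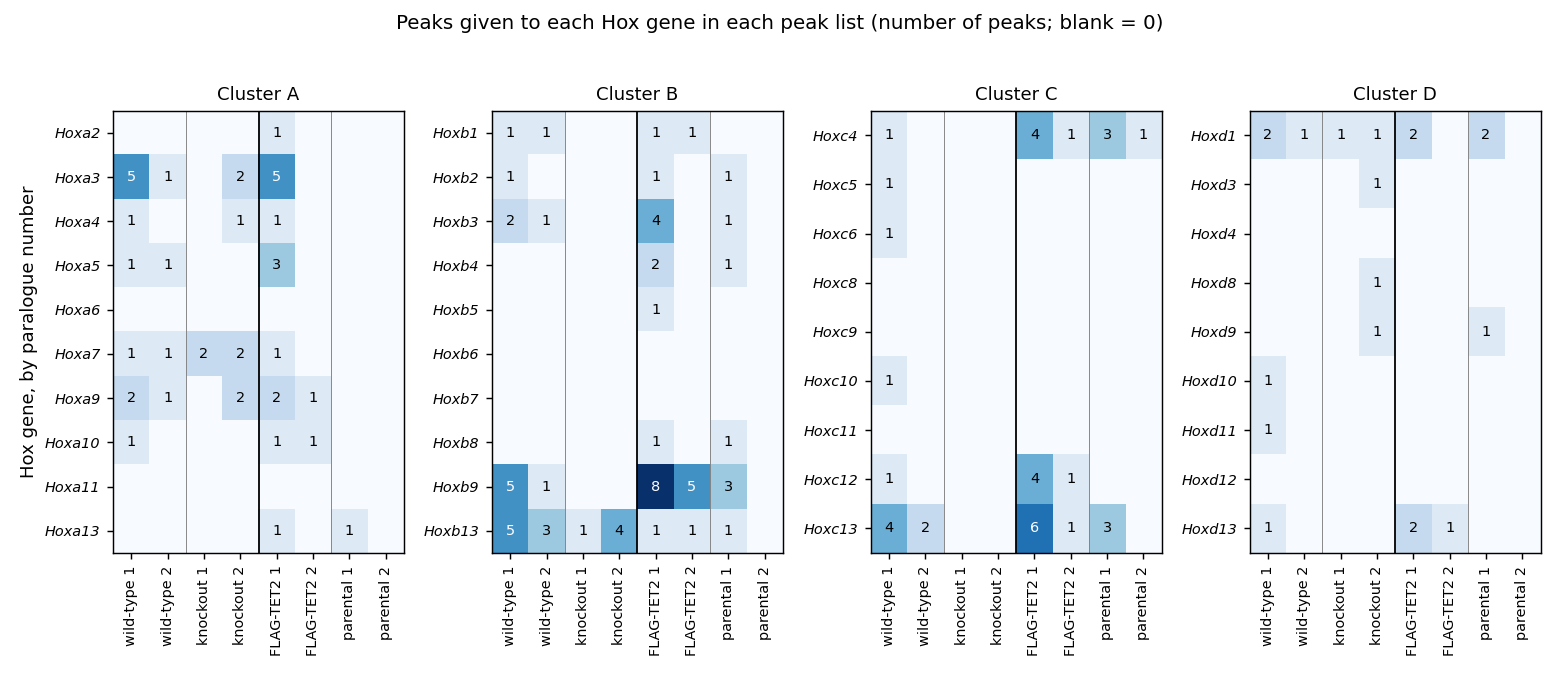
Number of peaks given to each Hox gene (rows, by paralogue number) in each list (columns); blank cells are 0 and the black line divides TET2 antibody from FLAG gel. Hoxb9 holds up to 8 peaks in a list and Hoxc13 up to 6, while 9 genes have none in any list.

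The genes were also read by paralogue position. Of 16 posterior genes (groups 9 to 13) 4 had a peak in all 4 target lists, namely Hoxa9, Hoxb9, Hoxb13 and Hoxc13. Of 11 anterior genes (groups 1 to 4) this held for Hoxb1, and of 11 central genes (groups 5 to 8) for none. Those 5 genes compare with 39.6% of all protein-coding genes. In each of the 5 the region shared by all 4 target lists lay outside the gene span. The distances were 0.889 kb (Hoxa9), 20.0 kb (Hoxb9), 3.69 kb (Hoxb13), 2.74 kb (Hoxc13) and 6.50 kb (Hoxb1). Peaks between genes went to the nearest gene, and the part of gap length beside a gene in these counts was not tested. Posterior genes with any peak numbered 12 of 16, anterior ones 10 of 11 and central ones 7 of 11. These are counts of genes that share clusters and, in some cases, peaks, so they were not tested.

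Cluster B, the longest, had the most Hox peaks in each target list. It gave 14 and 6 peaks in wild-type against 1 and 4 in knockout replicates, then 17 and 7 in FLAG-TET2 against 7 and 0 in parental replicates. Each target list exceeded its same-numbered control list. The log2(n + 1) difference was 1.89, with an exact permutation p of 0.111, the smallest it could give because of ties, and 0.222 after Benjamini-Hochberg adjustment over the 4 clusters. Without parental replicate 2 the difference was 1.14. Per Mb from the first to the last listed gene, cluster B held 69.0 and 23.0 peaks in wild-type replicates 1 and 2, fewer than the 91.4 and 30.5 of cluster A. In FLAG-TET2 replicates it held 86.2 and 28.75 per Mb, and cluster A 111.7 and 20.3. Hoxb9 led with 5 and 1 peaks in wild-type against 0 and 0 in knockout lists, then 8 and 5 in FLAG-TET2 against 3 and 0 in parental lists. Beside its common region, FLAG-TET2 replicates 1 and 2 shared 4 further regions of Hoxb9, from 19.1 kb outside the span to inside it. Those 16.7 kb away and inside the span had no parental peak. At 10.35 kb the peak of parental replicate 1 stood higher within its own list, at the 85.5 percentile, against 57.9 and 10.1 in FLAG-TET2 replicates 1 and 2. At 19.1 kb the FLAG-TET2 peaks stood at the 67.4 and 56.5 percentiles and that of parental replicate 1 at 28.8. Hoxb3, a hindbrain gene with a long span, had a region inside it (chr11:96311670-96311973) with peaks from wild-type replicates 1 and 2 and none from knockout cells. The percentiles were 53.3 and 50.8, and FLAG-TET2 replicate 1 had a peak at the 36.1 percentile.

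Cluster C gave no knockout peak at all. There were 9 and 2 peaks in wild-type against 0 and 0 in knockout replicates, then 14 and 3 in FLAG-TET2 against 6 and 1 in parental replicates. The log2(n + 1) difference was 1.75 (exact permutation p = 0.111, adjusted 0.222). It was 0.50 with peaks over a Hox span alone and 0.25 with lists shortened to equal length. The FLAG gel value of 1.05 was 0.10 without FLAG-TET2 replicate 1 and 0.15 without parental replicate 2. It was 2.00 without FLAG-TET2 replicate 2 and 1.95 without parental replicate 1. Most peaks lay at either end. Hoxc13 held 4 and 2 peaks in wild-type against 0 and 0 in knockout lists, then 6 and 1 in FLAG-TET2 against 3 and 0 in parental lists. A region 0.121 kb from the Hoxc13 span had wild-type peaks at the 56.9 and 17.6 percentiles and none in knockout. Hoxc12, its neighbour, had a region 1.52 kb away with FLAG-TET2 peaks at the 76.2 and 4.27 percentiles and none in parental lists. The region 45.8 kb from Hoxc4 was in both FLAG-TET2 lists (88.8 and 68.2 percentiles) and both parental lists (90.6 and 25.4), so cells without the tag gave it too.

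Cluster A held 9 and 3 peaks in wild-type against 2 and 6 in knockout replicates, then 11 and 2 in FLAG-TET2 against 1 and 0 in parental replicates. The log2(n + 1) difference was 1.27 (exact permutation p = 0.167, adjusted 0.223). It was 0.77 without FLAG-TET2 replicate 1. With lists shortened to equal length it reversed to -0.79, from -1.585 with the TET2 antibody and 0.0 with the FLAG gel, where no list kept a Hox peak. At full list length the TET2 antibody arm alone gave 0.46, and -0.20 without wild-type replicate 1 or -0.15 without knockout replicate 1. Hoxa9, a regulator of blood stem cells and a leukaemia gene, had the region of the cluster with the highest mean percentile over target lists. A target list without a peak entered that mean as 0, so the order also reflects presence in every target list. The Hoxa7 region, without a peak in FLAG-TET2 replicate 2, stood at the 70.8 and 58.0 percentiles in wild-type lists and at 25.7 in FLAG-TET2 replicate 1. The Hoxa9 region lay 0.889 kb from its gene at chr6:52221479-52222207. It stood at the 34.6 and 28.3 percentiles in wild-type lists and the 75.4 and 45.2 percentiles in FLAG-TET2 replicates. Knockout replicate 2 had a peak there at the 22.3 percentile. Hoxa10, needed for the uterus, had a region in its span with FLAG-TET2 peaks at the 22.8 and 35.9 percentiles, a wild-type replicate 1 peak at 30.1 and no control peak. Hoxa5, which acts in lung development, had a region (chr6:52204401-52204745) with wild-type peaks at the 55.6 and 28.8 percentiles, a FLAG-TET2 replicate 1 peak at 58.2 and no control peak. The same region lies in the long RefSeq span of Hoxa3 and was counted for both genes.

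Cluster D had the fewest peaks and the smallest difference. It held 5 and 1 peaks in wild-type against 1 and 4 in knockout replicates, then 4 and 1 in FLAG-TET2 against 3 and 0 in parental replicates. The log2(n + 1) difference was 0.40 (exact permutation p = 0.611, adjusted 0.611), and it turned to -0.10 without parental replicate 2 and to -0.33 when peaks had to overlap a span. Hoxd13, which patterns the digits, had the one region of the cluster that the FLAG-TET2 lists shared and parental lists lacked. It lay 0.957 kb from the gene, at the 77.1 and 7.11 percentiles, with a wild-type replicate 1 peak at 21.1. No cluster D region was shared by the wild-type lists and missing from the knockout lists.

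Region by region, 38 of the 65 Hox regions had no control peak (58.5%, against 49.3% of all merged regions), and 29 were seen in 1 list (44.6% against 39.6%). Of those 29, 13 came from FLAG-TET2 replicate 1 and 11 from wild-type replicate 1, the longest list of each group. Regions shared by the wild-type lists with no knockout peak (the wild-type kind) numbered 6 (9.23%, against 14.0% of all), and those shared by the FLAG-TET2 lists with no parental peak (the FLAG kind) 9 (13.8% against 12.4%). Regions in all 4 target lists numbered 5 (7.69% against 15.0%), and regions in at least 2 control lists 5 (7.69% against 16.3%). No Hox region had a peak in all 8 lists, which 0.319% of all regions had. Knockout peaks lay in 13 Hox regions and parental peaks in 16, and 2 regions had both, those 3.69 kb from Hoxb13 and in Hoxd1. Counts that need both lists of a group moved most without its shorter list. Without wild-type replicate 2 there were 27 regions of the wild-type kind and 7 common ones, and without FLAG-TET2 replicate 2 there were 30 of the FLAG kind and 6 common ones. Without knockout replicate 1, knockout replicate 2 or parental replicate 1, regions in at least 2 control lists numbered 3, 2 and 3.

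By gene, 6 of 38 had a region of the wild-type kind (32.0% of all genes), 7 had one of the FLAG kind (24.1%) and 4 had a region in at least 2 control lists (41.7%). Counting peaks over whole genes, Hoxa5, Hoxb1, Hoxb3, Hoxb9 and Hoxc13 had wild-type peaks in each replicate and no knockout peak, 5 of 38 against 20.3% of all genes. Hoxa9, Hoxa10, Hoxb1, Hoxc12 and Hoxd13 had FLAG-TET2 peaks in each replicate and no parental peak, again 5 of 38, against 4.32% of all genes. Hoxb1 was the one gene in both sets. Knockout replicates 1 and 2 had a peak at 8.85% and 34.1% of all genes, and parental replicates 1 and 2 at 62.9% and 29.9%.

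Genes that work with or upstream of Hox genes were read in the same way, as a fixed set of 6 lists. PBX, MEIS and PKNOX proteins bind DNA together with HOX proteins, and 6 of their 9 genes were given a common TET2 region, against 3 of 38 Hox genes and 13.6% of all genes. Of 6 ParaHox and CDX genes, relatives of the Hox genes, 4 were given one, led by Gsx1 and by Cdx4, an activator of Hox genes. The Gsx1 region lay 32.8 kb from its gene. The Cdx4 region lay 9.24 kb away, with wild-type folds of 22.8 and 11.6 and FLAG-TET2 folds of 16.3 and 6.34. In the retinoic acid pathway 3 of 10 were given one, and these were the receptor genes Rara, Rarb and Rarg. Of 17 Polycomb and trithorax genes 7 were, led by Jarid2 (8.11 kb from its region) and Cbx7. Of the 13 matched neighbours of the clusters 4 were (Cbx5, Evx1, Skap2 and Smug1), Evx1 being the homeobox gene that flanks cluster A. Of 30 other developmental homeobox and lineage genes 4 were (Msx2, Nkx2-2, En2 and En1). Spans were long in some of these lists (median 139 kb for the PBX, MEIS and PKNOX genes) and short in others (6.05 kb for ParaHox and CDX, 7.11 kb for the other developmental genes). Regions in at least 2 control lists were also given to 5 of 9 PBX, MEIS and PKNOX genes and 5 of 6 ParaHox and CDX genes. The same held for 5 of 10 retinoic acid, 11 of 17 Polycomb and trithorax, 8 of 13 neighbour and 11 of 30 other developmental genes. Of the Hox genes 4 of 38 had such a region, against 41.7% of all genes. The differences between lists were not tested.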

How the data were processed

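TET2 or FLAG ChIP-seq peaks of 8 mouse ES cell samples were analysed. Tools in the submitters' processing notes are MACS2, Bowtie2, Trimmomatic, DESeq2 and DiffBind, without version or role, and the build is mm10. Each deposited list belongs to a single library, with q10, rmChrM, rmDUP and IgG in the peak names. Each deposited peak has a score, a fold enrichment (a linear ratio), −log10 p and −log10 q values and a summit offset, all as the authors deposited them. The score was not used. Read depth is not given in the sources used here.

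Peaks on the 21 assembled chromosomes were kept and merged where they shared at least 1 bp. Gene spans came from RefSeq (GRCm38.p6), and all 38 listed symbols matched. Single values per list were compared by two-sided exact permutation tests, with labels permuted within each antibody; a p of 0.05 or less was the threshold, which 2 against 2 lists per antibody cannot reach (smallest p 0.0556). Python 3.11.15 with numpy 2.4.6, pandas 2.3.3 and scipy 1.17.1 was used, and assignment, merging and tests were tested on simulated data. Alternatives were 200 bp windows at the summit, a −log10 q minimum of 5, lists shortened to 2259 peaks, spans alone or 10 kb in place of 50 kb, each list left out and a replicate block. Named were genes with common regions or with peaks in both lists of a target group and neither of its controls, the leading and most control-marked region of each cluster, and genes with no peak; regions of the other lists and further Hox regions were named after their values were seen. The members and lists were chosen with earlier results of these data known.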

Additional observations from a re-analysis of the deposited data

How the results depend on the processing

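No tested difference could pass the threshold in this design, so the p-values say nothing about stability. When each list kept its 2259 leading peaks, the difference between target and control lists reversed for the number of Hox peaks (-0.16 on the log2 scale). It also reversed for Hox genes with a peak (-0.25 genes), for cluster A (-0.79) and for cluster D (-0.50). In all of these the FLAG gel arm was 0.0 because none of its lists kept a Hox peak. The reversals thus came from the TET2 antibody arm alone, and the FLAG arm was not tested by this setting. The regions numbered 7, with 2 of the wild-type kind, 0 of the FLAG kind and 0 common, since far fewer peaks enter. With peaks over a Hox span alone, cluster D reversed (-0.33), and there were 35 regions, 2 of each antibody's specific kind, 0 common and 2 in at least 2 control lists; within 10 kb the last number was 3. With a −log10 q of at least 5 the common regions numbered 5. Leaving out single lists gave 3 to 7 common regions, 6 to 27 of the wild-type kind, 9 to 30 of the FLAG kind and 2 to 5 in at least 2 control lists; cluster D ran from -0.10 to 0.90, and the difference between reagents in Hox peaks from -2.32 to 0.85. The number of Hox peaks ran from 0.94 to 2.52 over the same lists and kept its sign. Of the common regions, that of Hoxb9 was lost within 10 kb.

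Same-numbered lists of a reagent share a number in their labels, which do not say whether they were handled together. Over all merged regions, the differences between replicates 1 and 2 correlated at -0.0121 between wild-type and knockout lists. Between FLAG-TET2 and parental lists they correlated at -0.0691. These correlations of peak presence cannot decide whether the lists are pairs. With these pairs as a replicate block, the number of Hox peaks differed by the same 1.73 with p = 0.25 in the exact sign permutation, the share with p = 0.625, and genes with a peak with p = 0.125, the smallest that 16 arrangements allow.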

Other observations

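The clusters also hold 5 microRNA hairpins of the RefSeq table, which lie among the Hox genes and whose products are known to target Hox transcripts. None of Mir10a, Mir10b, Mir196a-1, Mir196a-2 and Mir196b overlapped a peak of any of the 8 lists. The nearest Hox region lay 1.56 kb from Mir10a, near Hoxb4, and 4.04 kb from Mir196b, between Hoxa9 and Hoxa10. For Mir196a-1, which sits between the common region of Hoxb9 and the gene itself, it lay 4.19 kb away, and for Mir196a-2 and Mir10b 6.71 and 20.3 kb. These are distances in these lists, and nothing was tested.

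The depth behind each list limits what an absent peak means: 0 peaks in parental replicate 2 within the 4 clusters, or in both knockout lists over cluster C, was not shown to be an absence of signal.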
